A study of Homo sapiens with 60 samples.

Results

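The genes described here encode 9 enzymes of serine, one-carbon and asparagine synthesis: ASNS, PHGDH, PSAT1, PSPH, SHMT2, MTHFD2, ALDH1L2, PCK2 and CTH. They were taken by name, and each matched 1 of the 60675 gene identifiers in the count table. They were followed in HT29, a human colorectal adenocarcinoma line, by RNA sequencing after 24 h with herbal extracts used in Korean medicine. Of 22 groups with 60 libraries in all, 18 were treated groups of 3 libraries, namely 3 doses of each of 6 extracts. Water extracts of the multi-herb formulas Palmul-tang and Sibjeondaebo-tang, and ethanol extracts of Poria Cocos, Atractylodis Rhizoma and Panax Ginseng, were given at 20, 100 and 500 µg/mL. The ethanol extract of Glycyrrhizae Radix (licorice) was given at 14, 70 and 350 µg/mL. An ethanol extract of Angelicae Gigantis Radix had 1 library at each of 12.8, 64 and 320 µg/mL. The vehicle group had 3 libraries and is labelled as 0.1% DMSO, while the series text gives 2% DMSO. By the dose rule of the series text, the top doses of Glycyrrhizae Radix and Angelicae Gigantis Radix were set at their IC20. The extracts are called Poria, Atractylodes, Ginseng, Glycyrrhiza and Angelica below. Whether the 3 libraries of a group came from separate cultures is not stated, so the p-values cover the spread among libraries, part or all of which may be technical.

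Serine is made from an intermediate of glycolysis in 3 enzymatic steps. PHGDH oxidises phosphoglycerate, PSAT1 adds an amino group and PSPH removes the phosphate. In mitochondria SHMT2 cleaves serine to glycine and passes a carbon unit to folate, and MTHFD2 oxidises that unit for use in purine and thymidylate synthesis. ASNS makes asparagine from aspartate with nitrogen from glutamine. Most of these genes are known targets of ATF4, a transcription factor that cells make when amino acids run short or proteins misfold, and proliferating tumour cells are known to draw on the pathway.

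A pair of promoter windows is shown, from ASNS because it had the largest change of the 9 genes and from PSAT1 as a gene that rose with no match to the motif searched. Each spans 250 bases before the start site to 50 after it, from RefSeq on GRCh38.p14, and capitals mark the CEBP-ATF response element TGATGNAA, the site through which ATF4 is known to act on ASNS.
ASNS, chr7:97872359-97872658, minus strand: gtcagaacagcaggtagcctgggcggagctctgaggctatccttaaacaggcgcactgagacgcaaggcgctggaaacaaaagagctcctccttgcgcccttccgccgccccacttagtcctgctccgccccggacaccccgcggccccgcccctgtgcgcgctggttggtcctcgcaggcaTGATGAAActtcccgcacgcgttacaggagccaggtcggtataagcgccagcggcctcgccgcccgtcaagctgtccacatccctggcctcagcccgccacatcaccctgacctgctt
PSAT1, chr9:78296875-78297174, plus strand: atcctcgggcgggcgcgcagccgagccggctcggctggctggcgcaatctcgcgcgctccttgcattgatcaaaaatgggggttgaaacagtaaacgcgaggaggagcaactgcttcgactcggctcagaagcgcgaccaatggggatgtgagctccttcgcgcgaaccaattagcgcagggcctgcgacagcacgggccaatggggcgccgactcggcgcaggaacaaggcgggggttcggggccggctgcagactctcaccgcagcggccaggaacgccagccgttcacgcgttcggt
The table of promoters held 6 of the 9 genes (ASNS, PHGDH, PSAT1, MTHFD2, PCK2 and CTH). On either strand the element was found in 1 of them, ASNS, 68 bases before the start site, as TGATGAAA. Another ASNS window, chr7:97872116-97872415, held no match to it. It occurred in 4.46% of 27305 genes with such a window. The antioxidant response element TGACNNNGC, through which NRF2 acts, was found in MTHFD2 alone of the 6, on the reverse strand, and in 16.06% of all genes. The 2 motifs do not share a match in these windows, and a match of letters is a description and not a bound site.

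Total counts were 19.31 M to 29.62 M per library (median 25.06 M), and those of vehicle were 19.79 M to 20.88 M. Of the 8 epithelial markers of the line, KRT8 lay at 6066 CPM or more and EPCAM at 486 CPM or more in every library. KRT18, CDH1, KRT20 and VIL1 lay at 113 CPM or more. CDX2 and CEACAM5 were low, at 3.53 to 6.27 CPM and 5.06 to 17.1 CPM. The fibroblast, leukocyte and endothelial markers without LYZ, 12 genes, summed to 5.60 to 8.82 CPM in treated libraries and 6.18 to 7.83 CPM in vehicle. LYZ itself lay between 1291 and 1670 CPM in all libraries. Protein genes of the mitochondrial genome took 5.31% to 8.53% of counts in treated libraries and 7.56% to 9.93% in vehicle. All sample titles, those of vehicle included, carry the label BatchC. The first number in the sample names of the extracts is read here as a set. Vehicle names do not start with such a number, so the set of a treated library and its treatment cannot be told apart in a comparison with vehicle. Comparisons between high and low dose lie within a set.

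With Glycyrrhiza, 8 of the 9 transcripts rose at 350 µg/mL relative to 14 µg/mL, and none was called lower. ASNS rose most, 3.90-fold. PCK2, CTH, PSAT1 and PHGDH rose 2.13-fold to 2.48-fold, MTHFD2 rose 1.66-fold, SHMT2 1.52-fold and PSPH 1.28-fold, while ALDH1L2, under 1.2 CPM in every library, was not called. Of all 16445 tested genes 14% were higher, 10.9% were lower and 24.9% were called in either direction in this comparison, by edgeR's quasi-likelihood test at a Benjamini-Hochberg adjusted p below 0.05. The median log2 fold change was 1.09 over the 9 genes and -0.01 over all tested genes. For these 8 genes the 3 high dose libraries all lay above the 3 low dose libraries. How many of all tested genes separated in that way was not counted. The values are given next in CPM, counts per M of a library size scaled by edgeR's TMM factor.

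**Figure D1:**
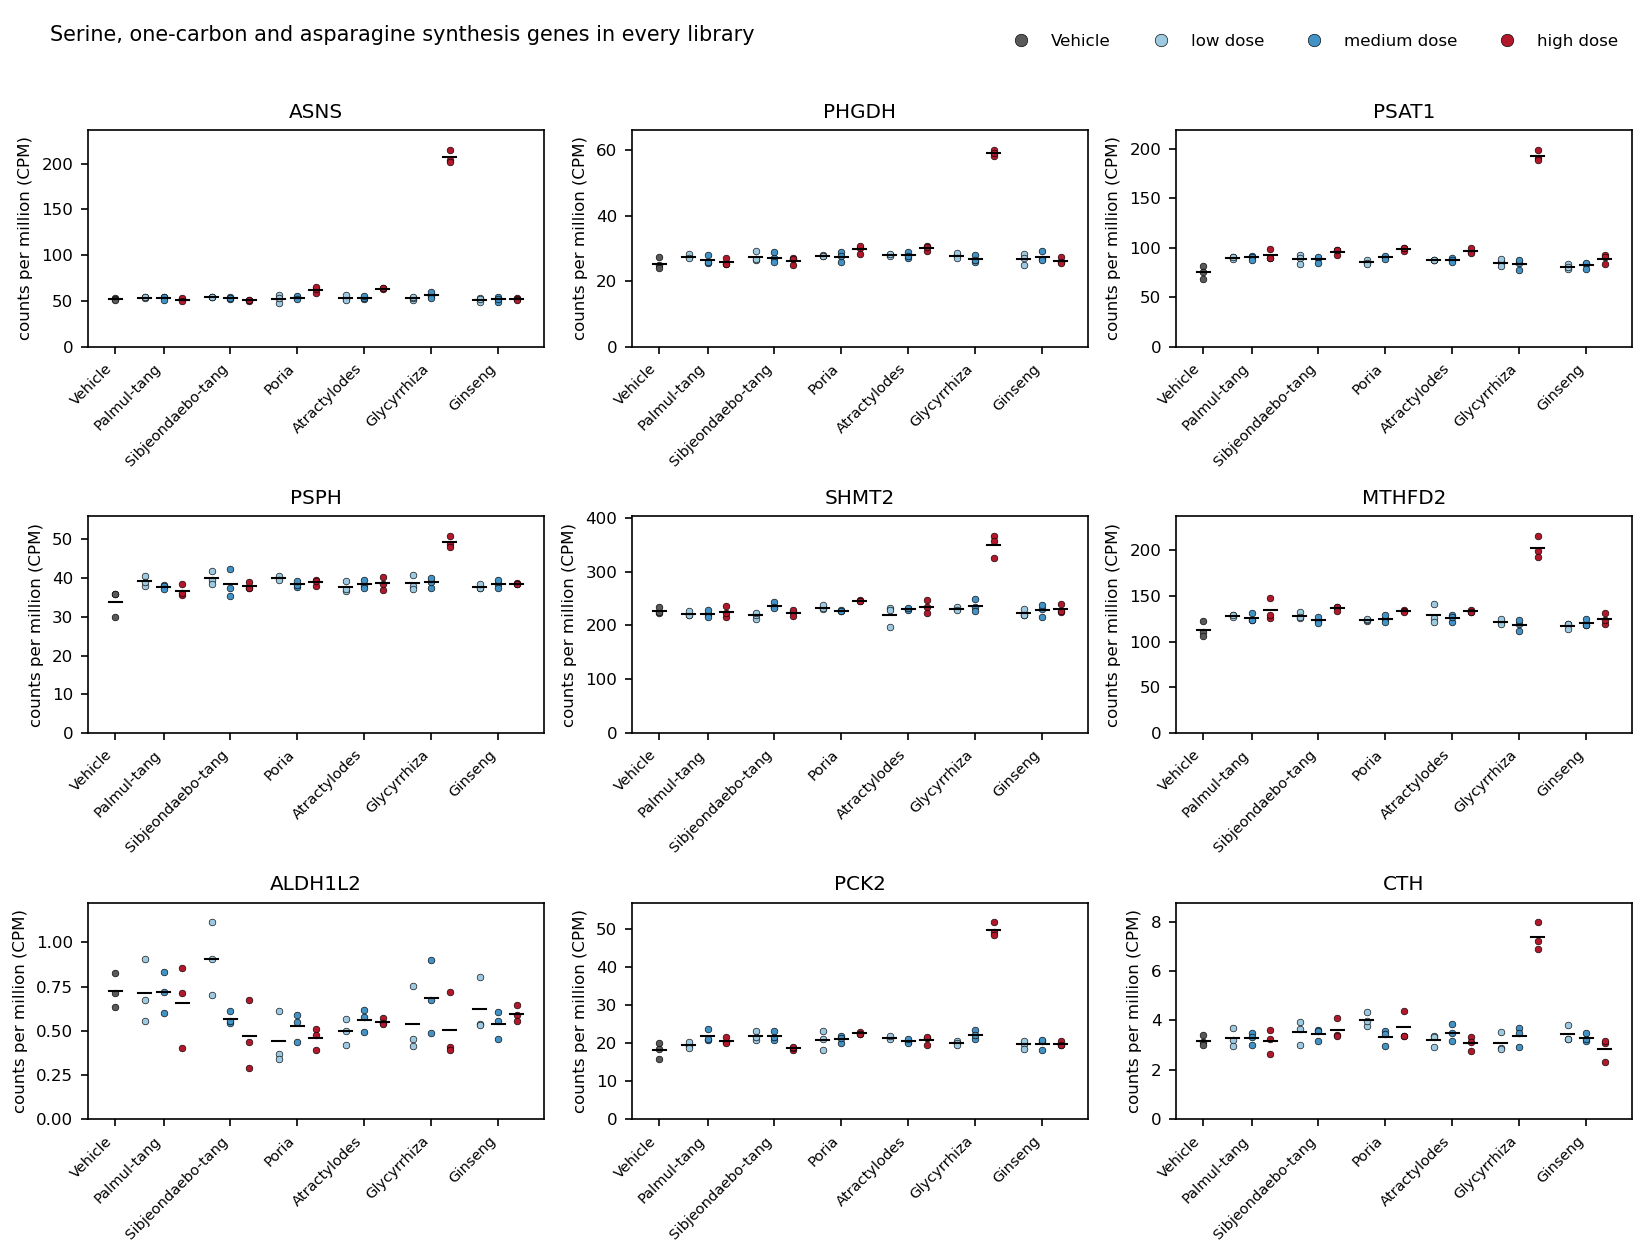
Level of each of the 9 genes in CPM (vertical axes, from 0) in all 57 libraries of groups with 3 libraries; points are libraries and bars are group means, and each extract runs from low to high dose. The 3 Glycyrrhiza high dose libraries stand above all others for 8 genes, with ASNS at 202 to 215 CPM, and ALDH1L2 stays at 0.289 to 1.11 CPM throughout. How many of all tested genes separate from all other libraries in this way was not counted.

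Serine synthesis begins with PHGDH (phosphoglycerate dehydrogenase; ENSG00000092621, GRCh38 chr1:119648411-119744226, plus strand). Its level was 60.1, 58.2 and 59.1 CPM at the high Glycyrrhiza dose, against 27.9, 28.5 and 27.0 CPM at the low dose. The log2 fold change was 1.09 ± 0.05 (SE; adjusted p = 3.3e-23). Every high dose library held more than any of the 54 libraries of other groups, which reached 30.7 CPM. PSAT1 (phosphoserine aminotransferase; ENSG00000135069, chr9:78297143-78330093, plus strand) stood at 199, 190.3 and 188 CPM at the high dose, against 85.2, 81.4 and 88.3 CPM at the low dose. Its log2 fold change was 1.18 ± 0.05 (adjusted p = 5.3e-25). The 95% intervals of the fit overlapped, at 1.08 to 1.27 for PSAT1 and 0.99 to 1.19 for PHGDH. PSPH (phosphoserine phosphatase; ENSG00000146733, chr7:56011051-56051604, minus strand) moved less. It had 48.9, 48.0 and 50.9 CPM at the high dose, against 38.0, 40.9 and 37.2 CPM at the low dose, a log2 fold change of 0.35 ± 0.05 (adjusted p = 2.0e-07). Its interval of 0.25 to 0.45 lay below those of the other 7 genes that rose.

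The mitochondrial one-carbon genes SHMT2 and MTHFD2 rose by smaller factors than PHGDH and PSAT1, with intervals that did not overlap theirs. SHMT2 (serine hydroxymethyltransferase; ENSG00000182199, chr12:57229327-57234935, plus strand) had 325, 366 and 357 CPM at the high Glycyrrhiza dose, against 230.1, 234 and 228 CPM at the low dose. The log2 fold change was 0.60 ± 0.05 (adjusted p = 4.3e-15). MTHFD2 (methylenetetrahydrofolate dehydrogenase and cyclohydrolase; ENSG00000065911, chr2:74198562-74217565, plus strand) had 216, 199 and 193 CPM at the high dose, against 122, 119 and 125 CPM at the low dose. It rose by 0.73 ± 0.05 (adjusted p = 6.6e-17). The libraries of the 2 doses did not overlap for either gene, and the intervals were 0.51 to 0.69 for SHMT2 and 0.63 to 0.83 for MTHFD2. ALDH1L2 (ENSG00000136010, chr12:105019784-105084577, minus strand) turns formyl-folate into carbon dioxide and folate in mitochondria. It had 0.411, 0.717 and 0.390 CPM at the high dose, against 0.416, 0.454 and 0.751 CPM at the low dose. The doses overlapped, and the log2 fold change of -0.13 ± 0.31 had an interval of -0.75 to 0.49 (adjusted p = 0.81). ALDH1L2 had 6 to 29 counts per library over the 57 libraries, and the upper bound of its interval lay below the rise of SHMT2 and above that of PSPH.

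ASNS (asparagine synthetase; ENSG00000070669, chr7:97852118-97872542, minus strand) had 215, 204 and 202 CPM at the high Glycyrrhiza dose, against 51.6, 52.8 and 54.8 CPM at the low dose. The log2 fold change was 1.97 ± 0.05 (adjusted p = 1.2e-34), and its interval of 1.87 to 2.06 lay above those of all other 8 genes. In the 54 libraries of other groups ASNS stayed between 48.3 and 64.8 CPM. PCK2 (ENSG00000100889, chr14:24094053-24110598, plus strand), the mitochondrial enzyme that makes phosphoenolpyruvate from oxaloacetate, had 49.0, 51.6 and 48.2 CPM at the high dose, against 20.4, 20.1 and 19.5 CPM at the low dose. It rose by 1.31 ± 0.06 (adjusted p = 1.7e-22), and the 54 other libraries reached at most 23.7 CPM. CTH (ENSG00000116761, chr1:70411218-70439851, plus strand) splits cystathionine, made from homocysteine and serine, to give cysteine. It had 6.91, 7.23 and 7.97 CPM at the high dose, against 2.88, 3.53 and 2.85 CPM at the low dose. It rose by 1.27 ± 0.12 (adjusted p = 7.5e-12), and its interval of 1.02 to 1.51 overlapped those of PCK2, PSAT1 and PHGDH.

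Together the 9 transcripts took 1120, 1125 and 1107 CPM at the high Glycyrrhiza dose, against 578, 580.3 and 583 CPM at the low dose. In the 54 other libraries the sum lay between 539 and 638 CPM. Of the increase of 537 CPM between the dose means, ASNS made up 28.7%, SHMT2 22.1%, PSAT1 20.0% and MTHFD2 15.1%, so these 4 genes held most of the added transcript. Per kb of exon, SHMT2 stood highest in vehicle at 46.9 ± 1.33 CPM per kb (SD, n = 3), followed by PSAT1 at 34.3 ± 3.10, MTHFD2 at 23.2 ± 1.76, PSPH at 12.3 ± 1.24 and ASNS at 11.7 ± 0.18. PSPH and ASNS did not differ there beyond their spread. PCK2 followed at 4.31 ± 0.49, PHGDH at 2.75 ± 0.18, CTH at 1.32 ± 0.09 and ALDH1L2 at 0.0853 ± 0.0115 CPM per kb. At the high Glycyrrhiza dose the order changed at the top: PSAT1 stood at 87.9 ± 2.53 CPM per kb, SHMT2 at 72.2 ± 4.44, ASNS at 46.5 ± 1.56 and MTHFD2 at 41.6 ± 2.39. These levels divide by all annotated exons of a gene, which span 9217 bases for PHGDH and 2188 for PSAT1 whether or not the cells use them all. CPM show a share of the RNA, so fewer cells with the transcript and less of it per cell cannot be told apart.

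At the medium Glycyrrhiza dose the genes lay near their low dose levels, and for 8 of them all high dose libraries lay above all medium dose libraries. At 70 µg/mL ASNS averaged 56.2 ± 3.02 CPM (SD, n = 3), PSAT1 83.1 ± 5.15, PHGDH 26.8 ± 1.14, SHMT2 237 ± 11.0, MTHFD2 119 ± 5.98 and CTH 3.38 ± 0.38. At 14 µg/mL the same genes averaged 53.1 ± 1.59, 85.0 ± 3.47, 27.8 ± 0.74, 231 ± 2.75, 122 ± 2.78 and 3.09 ± 0.39 CPM. The libraries of the medium and low dose overlapped for each of these 6 genes and for PSPH and ALDH1L2. PCK2 was the exception, with medium dose libraries at 21.1, 23.3 and 22.2 CPM that all lay above the low dose libraries. The medium dose was not tested against the low or the high dose. Nor was it counted how many of all tested genes separated from it in these ways.

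Against vehicle, the high Glycyrrhiza dose gave calls for the same 8 genes, again led by ASNS and PCK2. ASNS was higher by 1.99 ± 0.05, PCK2 by 1.45 ± 0.06, PSAT1 by 1.36 ± 0.05, PHGDH by 1.22 ± 0.05 and CTH by 1.21 ± 0.13 on the log2 scale. MTHFD2 was higher by 0.84 ± 0.05, SHMT2 by 0.62 ± 0.05 and PSPH by 0.54 ± 0.05, with adjusted p of 5.2e-11 or less for all 8. Of all tested genes 18.8% were higher in this comparison. ALDH1L2 had a log2 fold change of -0.55 ± 0.30 (adjusted p = 0.19). The comparisons with vehicle and with the low dose share the high dose libraries.

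Ginseng, tested in the same set as Glycyrrhiza but at 500 against 20 µg/mL, gave no called change in any of the 9 genes between high and low dose, where 2.52% of all tested genes were called and 1.29% were higher. At an unadjusted p under 0.05 there was 1 gene of the 9, PSAT1, and DESeq2 called 0. ASNS had 53.7, 51.9 and 51.1 CPM at the high Ginseng dose, against 48.8, 53.7 and 52.2 CPM at the low dose, a log2 fold change of 0.02 with an interval of -0.08 to 0.12, and the doses overlapped. PSAT1 had 92.2, 90.3 and 83.4 CPM at the high dose, against 78.2, 83.9 and 80.2 CPM at the low dose. Its 0.13 ± 0.05 missed the threshold (adjusted p = 0.15), as did CTH at -0.27 ± 0.14 (adjusted p = 0.38). The test of the difference between the dose changes of Glycyrrhiza and Ginseng called 8 of the 9 genes as further up with Glycyrrhiza, where 8.08% of all tested genes were. The difference was 1.95 ± 0.07 for ASNS, 1.54 ± 0.18 for CTH, 1.30 ± 0.09 for PCK2, 1.11 ± 0.07 for PHGDH and 1.04 ± 0.07 for PSAT1. It was 0.64 ± 0.07 for MTHFD2, 0.55 ± 0.06 for SHMT2 and 0.32 ± 0.07 for PSPH, with adjusted p of 0.0010 or less for all 8. For ALDH1L2 it was -0.06 ± 0.42 (adjusted p = 0.96).

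**Figure D2:**
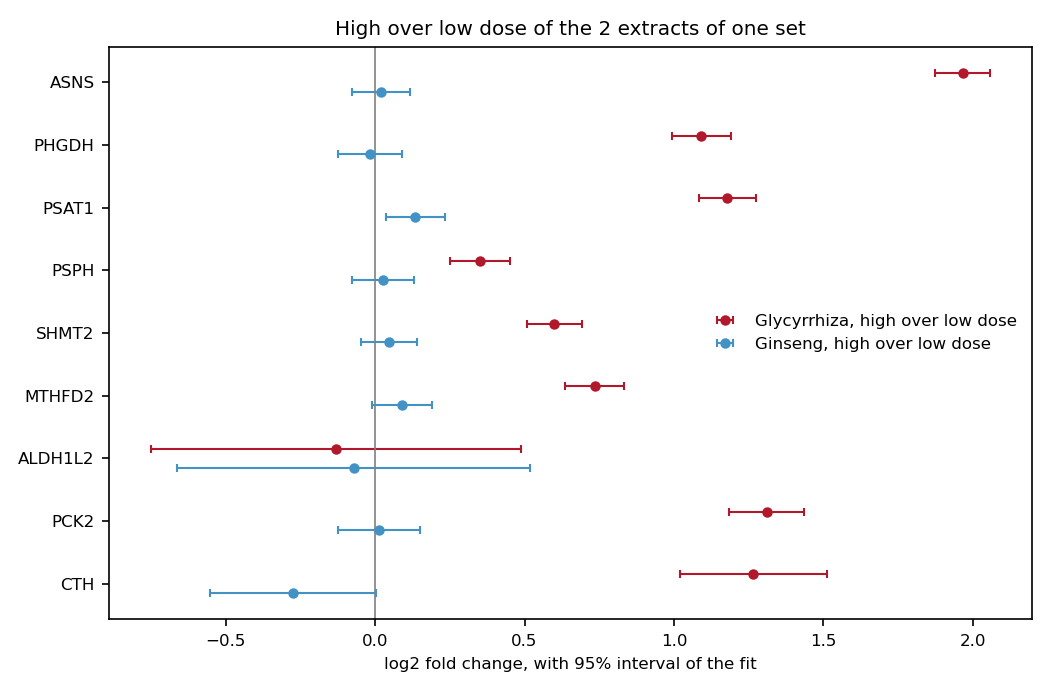
Log2 fold change of high over low dose (horizontal axis) for the 9 genes with Glycyrrhiza (350 over 14 µg/mL) and Ginseng (500 over 20 µg/mL); bars are 95% intervals of the fit over 3 libraries a group. For 8 genes the Glycyrrhiza interval lies above 0 and above the Ginseng interval, and for ALDH1L2 the intervals overlap.

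Poria and Atractylodes gave much smaller rises of ASNS. At the high Poria dose ASNS had 58.5, 63.4 and 64.8 CPM, against 48.3, 56.9 and 52.8 CPM at the low dose, and rose by 0.24 ± 0.05 (adjusted p = 0.0013). At the high Atractylodes dose ASNS had 63.1, 63.8 and 63.7 CPM, against 52.0, 50.8 and 56.8 CPM at the low dose, and rose by 0.26 ± 0.05 (adjusted p = 0.00021). In both extracts every high dose library lay above every low dose library. PSAT1 rose with Poria, to 96.4, 99.3 and 99.4 CPM at the high dose, against 87.5, 84.1 and 83.8 CPM at the low dose. That rise was 0.21 ± 0.05 (adjusted p = 0.0097), and with Atractylodes PSAT1 had 0.15 ± 0.05 (adjusted p = 0.072). The counts were thus 2 of 9 higher with Poria, where 1.02% of all tested genes were, and 1 of 9 with Atractylodes, where 1.93% were. By edgeR's quasi-likelihood test no other gene of the 9 was called with either, and none was lower. For PSAT1 with Atractylodes DESeq2 and the replicate block gave a call (adjusted p = 0.040 and 0.046, over a range of 0.040 to 0.27 in 12 alternatives). The test of the difference between the dose changes of these 2 extracts called 0 of the 9 genes and 0.158% of all genes, with 0 of the 9 at an unadjusted p under 0.05 and 0 by DESeq2. The Poria call of ASNS was lost when the 6 libraries were fitted alone (adjusted p = 0.17, over a range of 0.00015 to 0.17 in 12 alternatives). The Poria call of PSAT1 was lost without low dose replicate 3 (adjusted p = 0.057, over a range of 0.0017 to 0.057).

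The decoctions gave no call among the 9 genes between high and low dose, by edgeR's quasi-likelihood test. With Palmul-tang 0.152% of all tested genes were called (0.103% higher) and with Sibjeondaebo-tang 0.371% (0.195% higher). ASNS had 51.7, 53.0 and 49.9 CPM at the high Palmul-tang dose, against 53.3, 53.9 and 54.0 CPM at the low dose. With Sibjeondaebo-tang it had 50.5, 51.2 and 51.3 CPM at the high dose, against 54.4, 54.9 and 53.9 CPM at the low dose. Both sets of ASNS libraries were a little lower at the high dose with no overlap, and the log2 fold changes were -0.06 ± 0.05 and -0.09 ± 0.05 (adjusted p = 0.90 and 0.47). At an unadjusted p under 0.05 there were 0 of the 9 genes with Palmul-tang and 3 with Sibjeondaebo-tang, and DESeq2 called 0 with either. The 3 were PCK2 at -0.23 ± 0.07 (adjusted p = 0.11), PSAT1 at 0.12 ± 0.05 (adjusted p = 0.36) and ALDH1L2 at -0.92 ± 0.28 (adjusted p = 0.15). The test of the difference between the dose changes of the 2 decoctions called 0% of all genes, and thus 0 of the 9, with 2 at an unadjusted p under 0.05 and 0 by DESeq2.

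**Figure D3:**
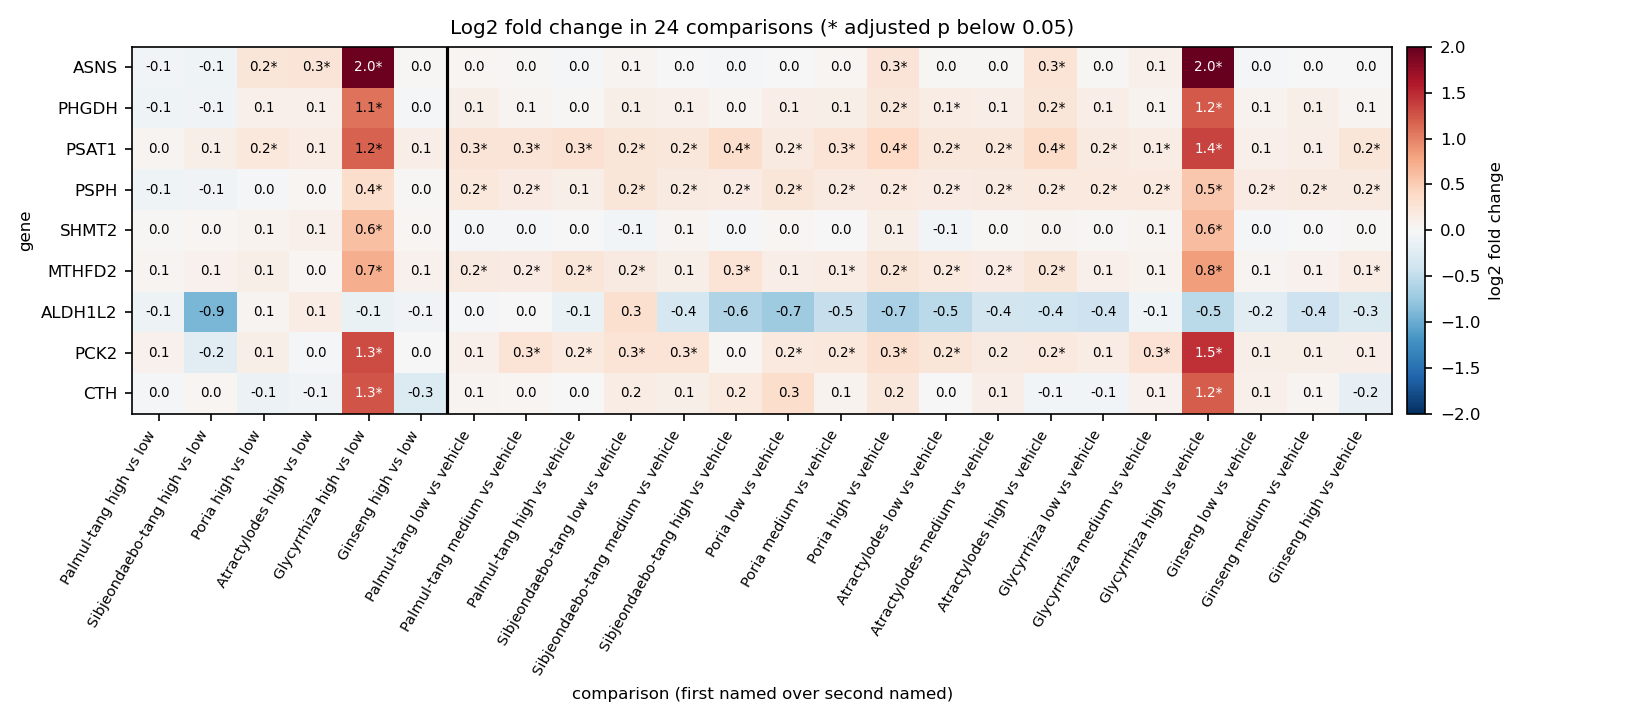
Log2 fold change (colour, and printed to 1 decimal) of the 9 genes (rows) in 6 comparisons of high with low dose, left of the line, and 18 comparisons with vehicle, right of it; a star marks an adjusted p below 0.05. The Glycyrrhiza high dose columns hold the darkest cells, with ASNS at 1.97 and 1.99, and PSAT1 and PSPH carry stars in most comparisons with vehicle.

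Against vehicle, PSPH and PSAT1 were higher in nearly all treated groups, by small amounts outside the Glycyrrhiza high dose. Of the 18 comparisons, PSPH was called higher in 17, PSAT1 in 16, MTHFD2 in 12, PCK2 in 11, PHGDH in 4, ASNS in 3, SHMT2 and CTH in 1 each and ALDH1L2 in 0, and no gene was called lower. At the high doses of the other 5 extracts, PSAT1 was higher by 0.24 to 0.39, MTHFD2 by 0.14 to 0.27 and PSPH had values of 0.12 to 0.20 on the log2 scale. The vehicle libraries themselves were spread: PSPH had 35.9, 29.9 and 35.9 CPM, PSAT1 81.4, 75.6 and 67.9 CPM and PCK2 20.0, 18.4 and 15.9 CPM. Vehicle replicate 2 was the low one for PSPH, and vehicle replicate 3 the low one for PSAT1, MTHFD2 and PCK2. Without vehicle replicate 2, PSPH was called in 3 of 18 comparisons, MTHFD2 and PCK2 in 8 each and PHGDH in 10. Without vehicle replicate 3, MTHFD2 was called in 5, PCK2 in 2 and PSAT1 in 13. With the mitochondrial share of each library as a covariate, MTHFD2 and PCK2 were called in 1 each, PSAT1 in 12 and PSPH in 16. With only the libraries compared in each fit, PSPH was called in 3, PCK2 in 4, MTHFD2 in 7 and PSAT1 in 13. ASNS was called in 3 and CTH in 1 under each of these settings. The mitochondrial share was 7.56% to 9.93% in vehicle, highest in replicate 3, and 5.31% to 8.53% in treated libraries. These ranges overlap only in part, so the covariate cannot fully separate that share from treatment. The part of the mitochondrial share in the smaller differences was not tested.

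By extract, the counts against vehicle at the low, medium and high dose were 3, 4 and 3 of 9 higher with Palmul-tang, where 10.8%, 11% and 11.7% of all tested genes were higher. With Sibjeondaebo-tang they were 4, 3 and 3 of 9, where 10.8%, 11.2% and 14.2% of all genes were higher. With Poria they were 3, 4 and 6 of 9, where 10.1%, 10.9% and 13.4% were, and with Atractylodes 5, 3 and 6 of 9, where 11.6%, 11.3% and 11.9% were. With Ginseng they were 1, 1 and 3 of 9, where 6.91%, 6% and 10.3% were. With Glycyrrhiza 2 of 9 were higher at the low dose (PSAT1 and PSPH) and 3 at the medium dose (PSAT1, PSPH and PCK2), where 9.31% and 7.58% were. At the high doses of Poria and Atractylodes the same 6 genes were called, namely ASNS, PHGDH, PSAT1, PSPH, MTHFD2 and PCK2. PHGDH was higher by 0.23 ± 0.05 with Poria (adjusted p = 0.00091) and by 0.25 ± 0.05 with Atractylodes (adjusted p = 0.00048). All these comparisons share the 3 vehicle libraries. Without vehicle replicate 3 the count was 2 for Palmul-tang medium, Sibjeondaebo-tang low, Poria medium and Atractylodes low, and 1 for Poria low and for the low and medium Glycyrrhiza doses. Without vehicle replicate 2 it was 1 for Ginseng high and 0 for Ginseng medium and low.

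With 1 library a dose, Angelica has no replicate check. ASNS stood at 49.9, 53.1 and 54.4 CPM at the low, medium and high dose, against 51.0 to 52.4 CPM in vehicle on the same scale. Past 1.5-fold, 0 of the 9 genes were higher at the high than at the low dose, where 3.11% of all genes were, and 0 were lower, where 7.52% were. Against the vehicle mean, CTH was past 1.5-fold lower at the high dose and 0 of the 9 genes were higher. It had 2.02 CPM from 40 counts (exact Poisson interval 1.44 to 2.75, counting error only), against 2.99 to 3.38 CPM in vehicle. Of all genes 6.52% were that much lower and 3.31% that much higher than vehicle.

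Over the 19 groups of 3 libraries, the group means of the 8 genes other than ALDH1L2 moved together, mostly through 1 group. The 28 pairwise correlations (Pearson, log2 CPM) ran from 0.84 to 0.99 with a median of 0.91. Without the Glycyrrhiza high dose, over 18 groups, they ran from -0.02 to 0.94 with a median of 0.36. The points share the cell line and, in part, the set and the dose series, and no p was computed. Genes with a mean of at least 5 CPM numbered 10690, counted before the 9 genes and genes without a symbol were left out. Of the rest, those most like the mean of the 9 were SESN2, GDF15, CARS1, RHOQ and HERPUD1, with r of 0.97 to 0.98 over 19 groups. Their r over the 18 groups without the Glycyrrhiza high dose were 0.63 for SESN2, 0.69 for GDF15, 0.63 for CARS1, 0.28 for RHOQ and 0.14 for HERPUD1.

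In Glycyrrhiza high against low dose the neighbouring pathways had median log2 fold changes between -0.08 and 0.06, against 1.09 for the 9 genes. Their counts stand beside 14% higher and 10.9% lower among all tested genes. Of 20 tested genes of the folate cycle and serine use, 2 rose and 5 fell, with a median of -0.02. ALDH1L1, the cytosolic relative of ALDH1L2, rose by 0.36 ± 0.12, while MTHFD2L, a relative of MTHFD2, fell by 0.36 ± 0.06. SHMT1, the cytosolic partner of SHMT2, was named after its value was seen: it had 53.4 ± 0.53 CPM at the high dose, against 64.0 ± 2.77 CPM at the low dose (SD, n = 3), and fell by 0.26 ± 0.05 (adjusted p = 1.8e-05). Of 8 purine synthesis genes 0 rose and 3 fell (PFAS, PAICS and ATIC, by 0.24, 0.20 and 0.15), and of 6 tested methionine cycle genes 2 rose (MAT2A by 0.26 and AHCYL1 by 0.15). Of 14 genes of other nonessential amino acids 3 rose and 3 fell. ASS1, which joins citrulline and aspartate on the way to arginine, rose by 1.34 ± 0.08, with 34.7 ± 1.48 CPM at the high dose against 13.7 ± 0.72 CPM at the low dose. GPT2, which converts pyruvate to alanine and back, rose by 0.55 ± 0.04 and PYCR1, which makes proline, by 0.39 ± 0.05. Of 3 tested gluconeogenesis genes PC rose by 0.23 and FBP1 fell by 0.22.

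The genes around ATF4 moved with the 9 in that comparison, in lists chosen with earlier results of these data known. Of all tested genes 14% were higher and 10.9% lower there. Of 16 tested ATF4 factors and effectors 15 rose and 1 fell, with a median of 1.00. CHAC1, which breaks down glutathione, rose by 2.69 ± 0.12, NUPR1, a stress-induced chromatin protein, by 1.95 ± 0.34 and DDIT3, the stress factor CHOP, by 1.75 ± 0.11. The NUPR1 level was low, at 1.68 ± 0.17 CPM at the high dose against 0.43 ± 0.14 CPM at the low dose (SD, n = 3). ATF4 itself and ATF5 were named after their values were seen: ATF4 had 422 ± 24.0 CPM at the high dose, against 260.0 ± 7.29 CPM at the low dose, and rose by 0.70 ± 0.05. ATF5 was the gene of the list that fell, by 0.51 ± 0.09. All 9 amino acid transporters of the program rose, with a median of 0.91, led by the glycine carrier SLC6A9 (3.50 ± 0.22), the cystine carrier SLC7A11 (1.77 ± 0.07) and the neutral amino acid carrier SLC1A4 (1.32 ± 0.07). SLC6A9 had 8.94 ± 0.42 CPM at the high dose, against 0.791 ± 0.143 CPM at the low dose (SD, n = 3). All 16 NRF2 targets, genes of the oxidative stress response, also rose, with a median of 0.75. The 13 protein genes of the mitochondrial genome had 0 calls by edgeR's quasi-likelihood test, and 0 had an unadjusted p under 0.05.

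The lists were called to different extents across the extracts. In the other 5 extracts, high against low dose called 6 of 16 NRF2 targets as higher with Palmul-tang, 9 with Sibjeondaebo-tang, 15 with Poria, 15 with Atractylodes and 14 with Ginseng, and 0 as lower. Of all tested genes 0.103% were higher with Palmul-tang, 0.195% with Sibjeondaebo-tang, 1.02% with Poria, 1.93% with Atractylodes and 1.29% with Ginseng. Of the 16 ATF4 factors, 2 rose with Poria (GDF15 by 0.28 and TRIB3 by 0.25) and 0 were called with the other 4 extracts. At an unadjusted p under 0.05, 1 was higher and 0 lower with Palmul-tang, and 0 higher and 4 lower with Sibjeondaebo-tang. By the same measure 1 was higher and 4 lower with Atractylodes, and 1 higher and 3 lower with Ginseng. Of the 9 transporters, 1 rose with Sibjeondaebo-tang, 3 with Poria, 5 with Atractylodes and 2 with Ginseng, and 0 were called with Palmul-tang, where 1 had an unadjusted p under 0.05. SLC7A11 rose by 0.43 ± 0.07 with Sibjeondaebo-tang, 0.64 ± 0.07 with Poria, 0.71 ± 0.07 with Atractylodes and 0.49 ± 0.07 with Ginseng. Its partner chain SLC3A2 rose by 0.36 ± 0.06 with Poria, 0.26 ± 0.06 with Atractylodes and 0.20 ± 0.06 with Ginseng. In the test of the difference between the dose changes of Glycyrrhiza and Ginseng, 15 of 16 ATF4 factors, 9 of 9 transporters and 9 of 16 NRF2 targets were further up with Glycyrrhiza, as were 8.08% of all tested genes.

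**Figure D4:**
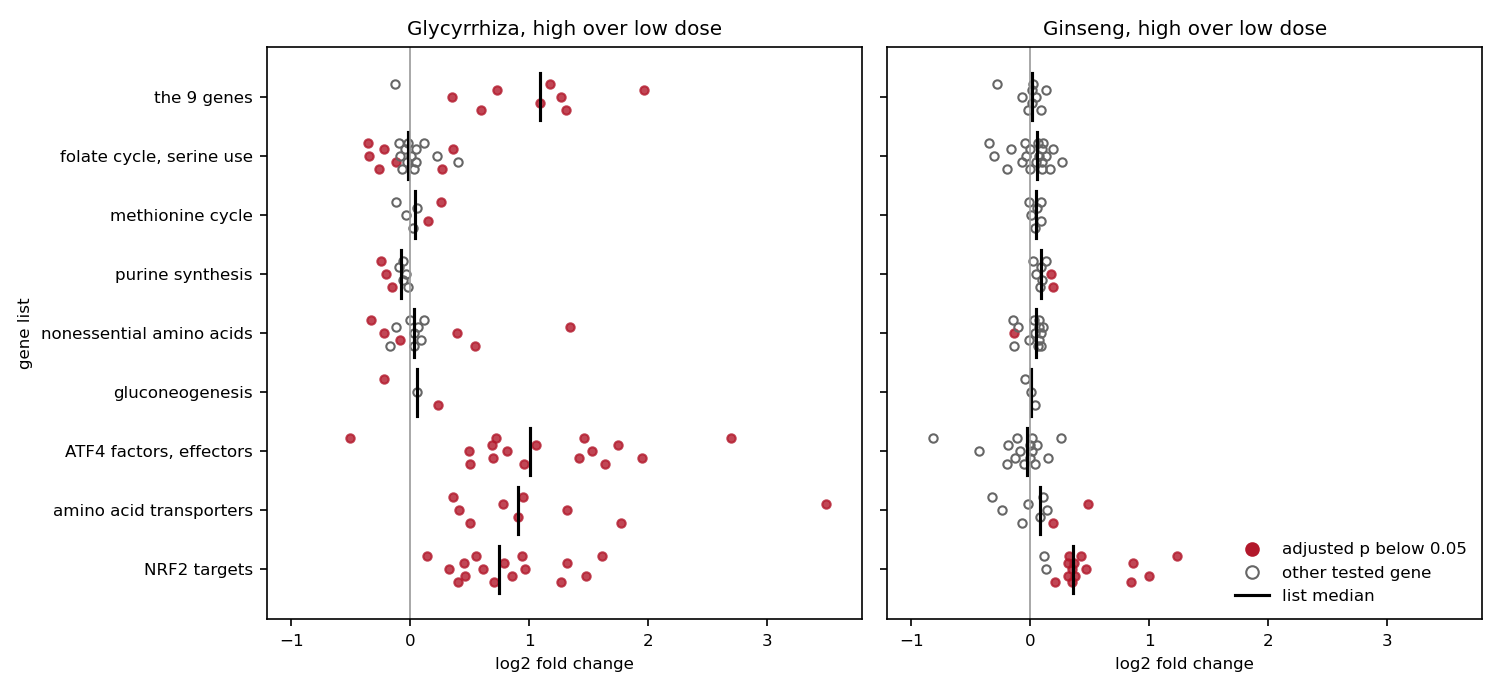
Log2 fold change of high over low dose (horizontal axes) for each tested gene of 9 lists (rows) with Glycyrrhiza (left) and Ginseng (right); filled points had an adjusted p below 0.05, open points did not, and bars are list medians. With Glycyrrhiza the medians of the 9 genes, the ATF4 factors, the transporters and the NRF2 targets lie at 0.75 or above, and with Ginseng the NRF2 median of 0.36 is the one list median above 0.1.

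Near-identical copies held few counts. Of 16 annotated pseudogene copies of the 9 genes, none held more than 6 counts in a library, against a median of 2236 for PSAT1, whose copy PSAT1P3 was the highest. Genes on the opposite strand overlap ASNS, SHMT2, MTHFD2, PCK2 and ALDH1L2. A processed pseudogene opposite ASNS, ENSG00000226744, had 0 counts in every library, and the Metazoa_SRP gene on the strand of CTH had at most 1. A processed transcript on the strand of ASNS, ENSG00000284707, was not analysed here. NDUFA4L2, SLC4A5 and NRL had medians of 9, 13 and 21 counts, against 5766 for SHMT2, 3183 for MTHFD2 and 518 for PCK2. NOPCHAP1, opposite ALDH1L2, had a median of 307 counts against 14 for ALDH1L2. The library kit keeps strand, and no source used here gives whether the counting used it.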

How the data were processed

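RNA of 60 HT29 libraries was sequenced as 100 bp read pairs from a directional kit, per the labels' protocols. The authors deposited expected counts, 1 per gene and library, and the submitters' processing notes name FastQC 0.11.9, Trim Galore 0.6.5, STAR 2.7.3a, RSEM 1.3.3 and hg38. No source used here names the annotation release. Values that were not whole, 7.70% to 9.78% of each library, were rounded. RSEM shares reads of near-identical copies by probability. The 213 other sample columns of the table were not used. Of the identifiers 56558 had a symbol in the gene name table; coordinates came from GENCODE on GRCh38 and promoters from RefSeq. All identifiers name a gene.

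The 57 libraries of the 19 groups of 3 were fitted together with edgeR 4.0.16 (R 4.3.3). The fit used TMM factors of 0.956 to 1.031, the filterByExpr filter (16445 genes, with all 9 genes kept) and edgeR's quasi-likelihood F test (residual degrees of freedom: 38). P-values were adjusted by Benjamini-Hochberg over all tested genes within each of 27 comparisons, with a threshold of 0.05. CPM use TMM-scaled library sizes. Angelica ratios to vehicle used a prior count of 2. Depth of 19.31 M to 29.62 M counts per library sets the counting error, which intervals for single libraries cover alone. The script was tested on simulated data. Alternatives were RLE factors, no filter, DESeq2 1.42.0, only the libraries compared, the mitochondrial share as a covariate, the replicate number as a block, and each library left out.

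Same-numbered libraries deviated together in Ginseng high against low dose (r = 0.13, 0.28 and 0.40). They did so more weakly in Palmul-tang high against low dose (r = 0.06, 0.17 and 0.15). The replicate block changed no call of the 9 genes in either comparison. The gene set and lists were chosen with earlier results of these data known. All 9 genes are given, and up to 3 called genes of each other list with the largest changes were named, with exceptions stated beside them; 1 such gene is not reported here. Genes most like the 9 were the 5 with the highest Pearson r to their mean.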

Additional observations from a re-analysis of the deposited data

Results flagged for a closer look

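In the set that holds Glycyrrhiza and Ginseng, the change between high and low dose differed between the extracts for 8 of the 9 genes by edgeR's quasi-likelihood test of the difference itself. On the log2 scale, Glycyrrhiza minus Ginseng, it was 1.95 for ASNS, 1.54 for CTH, 1.30 for PCK2, 1.11 for PHGDH and 1.04 for PSAT1. It was 0.64 for MTHFD2, 0.55 for SHMT2 and 0.32 for PSPH. The top doses were 350 µg/mL for Glycyrrhiza, its IC20 by the series' dose rule, and 500 µg/mL for Ginseng, so the extracts were not compared at a matched dose. The part of toxicity in the difference was not tested. All 8 genes were called in each of the alternatives run for this comparison.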

How the results depend on the processing

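The 8 Glycyrrhiza high dose calls against the low dose, against vehicle and in the difference from Ginseng held under each alternative, leaving out each library included. ASNS ranged from 1.93 to 1.99 against the low dose and PSPH from 0.32 to 0.39. No called gene value changed sign. Of the 84 gene calls, the mitochondrial share as a covariate lost 27, fitting only the libraries compared 31, no filter 10, DESeq2 3, and RLE factors and the replicate block 0; leaving out a library lost 79 of 552. Causes were not tested.

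Number of the 9 genes called (reported number in brackets). With the mitochondrial covariate: Sibjeondaebo-tang high against low dose 1 (0); against vehicle, Palmul-tang high 1 (3) and medium 1 (4), Sibjeondaebo-tang low 2 (4), Poria medium 2 (4) and low 1 (3), Atractylodes medium 1 (3) and low 2 (5), Glycyrrhiza medium 1 (3) and low 1 (2). With only the libraries compared: Poria high against low dose 1 (2); against vehicle, the medium dose of Ginseng 0 (1), Glycyrrhiza 1 (3), Atractylodes 1 (3), Poria 1 (4), Sibjeondaebo-tang 1 (3) and Palmul-tang 1 (4), the low dose of Poria 0 (3), Atractylodes 1 (5), Glycyrrhiza 0 (2) and Ginseng 0 (1), and the high dose of Ginseng 1 (3). With no filter: Atractylodes low 3 (5), Ginseng medium 0 (1) and low 0 (1). With DESeq2: Ginseng low 0 (1), and Atractylodes high against low dose 2 (1). The replicate block also gave 2 (1) there. Outside high against low dose of Ginseng and, more weakly, of Palmul-tang, the numbers did not pair the libraries. The block added MTHFD2 for Sibjeondaebo-tang medium and Poria low against vehicle.

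Leaving out each library in turn gave 1 to 2 for Poria high against low dose. Against vehicle it gave 2 to 4 for Palmul-tang medium and Poria medium, 2 to 5 for Sibjeondaebo-tang low, 1 to 4 for Poria low, 2 to 4 for Atractylodes low, 1 to 3 for Glycyrrhiza medium, 1 to 4 for Glycyrrhiza low and Ginseng high, and 0 to 2 for Ginseng medium and low. The lowest number came without vehicle replicate 3 in 7 of these 10 comparisons with vehicle and without vehicle replicate 2 for the 3 Ginseng doses. It was shared by vehicle replicate 2 for Palmul-tang and Glycyrrhiza medium, and by Palmul-tang medium replicate 1, Poria medium replicates 1 and 3, Atractylodes low replicate 3, Glycyrrhiza low replicates 2 and 3, Ginseng medium replicate 2 and each Ginseng low replicate. Over all genes, the 18 comparisons with vehicle called 1670 to 5642 genes, against 856 to 4443 without vehicle replicate 3, 1082 to 4096 with the mitochondrial covariate and 341 to 4793 with only the libraries compared. The 6 comparisons of high with low dose called 25 to 4095, against 9 to 3863 with only the libraries compared, 115 to 3701 with no filter and 52 to 4405 with the replicate block. Depth limits ALDH1L2, at 6 to 29 counts per library.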
